A study of Homo sapiens with 12 samples.

Results

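A group of 10 transcripts that report on ERK signalling was followed through drug tolerance in a lung cancer cell line. They are the dual-specificity phosphatases DUSP4, DUSP5 and DUSP6, the Sprouty genes SPRY1, SPRY2 and SPRY4, the Sprouty-related genes SPRED1 and SPRED2, and the ETS-family transcription factors ETV4 and ETV5. These 10 genes were chosen by symbol, matched through their Ensembl identifiers, from 62754 gene identifiers in the deposited table, and all 10 were among the 17115 genes that passed the filter on low counts. The cells are PC9, a human lung adenocarcinoma line, and the RNA-seq libraries were made from polyA RNA. There were 12 libraries in 4 groups of 3, and the labels place all of them in batch 1. The first group is TDP1 wild type and untreated (untreated WT). The second is TDP1 wild type after 7 days in 1 µM erlotinib, an inhibitor of the EGFR kinase, which the labels call drug-tolerant cells (DTC). The third is TDP1 wild type after 28 days in 1 µM erlotinib, called drug-tolerant expanded cells (DTEC). The fourth is an untreated TDP1 knockout line, KO2 (KO). TDP1 is a DNA repair enzyme that removes trapped topoisomerase I from DNA ends. All cells go back to a single subclonal PC9 line, the knockout is represented by 1 line, and the replicates of a condition were cultures split from one flask, so p-values measure the spread between such cultures and not between independent isolates.

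ERK is the last kinase of the RAS-RAF-MEK-ERK cascade that EGFR drives, and it limits its own activity by inducing its inhibitors. DUSP phosphatases remove the activating phosphates from MAP kinases, and Sprouty and SPRED proteins restrain the pathway upstream of RAF. ETV4 and ETV5 are PEA3-type ETS factors whose transcription is held down by the repressor capicua until ERK signalling inactivates it. For these reasons the group is widely used as a transcript readout of ERK output.

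Letters based on those that capicua and the ETS and AP-1 factors are known to recognise were looked for in RefSeq promoter windows of GRCh38.p14. These windows run from 250 bases before to 50 bases after a transcript start. Windows were found for 6 of the 10 genes (DUSP6, SPRY1, SPRY2, SPRY4, SPRED1 and SPRED2), 10 windows in all. Both strands were searched for 4 capicua octamers (TGAATGAA, TGAATGGA, TCAATGAA and TCAATGGA), for the ETS core CCGGAA, for the AP-1 letters TGANTCA and for the CRE letters TGACGTCA. N stands for any base, so the AP-1 search was looser than one for a fixed site. DUSP6 is shown first because its window held 2 copies of an octamer, read here as TCCATTGA, the reverse complement of TCAATGGA. The other stretches are the ETS cores and AP-1 letters found in windows of the Sprouty and SPRED genes. All are printed 5′ to 3′ on the strand of the gene, with the matched letters in capitals.
DUSP6 octamer, chr12:89352512-89352531, minus strand: aatgtaTCCATTGAgacgct
DUSP6 octamer, chr12:89352487-89352506, minus strand: tttgtaTCCATTGAggagct
SPRY1 ETS core, chr4:123398313-123398330, plus strand: ccgcagCCGGAAgggggc
SPRY2 ETS core, chr13:80341257-80341274, minus strand: cctcctCCGGAAaggcga
SPRED2 AP-1, chr2:65366772-65366790, minus strand: ctcggaTGACTCAtccggt
SPRED2 AP-1, chr2:65366732-65366750, minus strand: ggagacTGAATCAtatatg

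The DUSP6 octamers began 24 bases before and at base 2 of the RefSeq transcript. In the GENCODE 29 annotation both lie in the 5′ untranslated part of a longer DUSP6 transcript. At least 1 capicua octamer was present in 3.77% of the 35116 windows in the RefSeq table and 2 or more in 0.327%, so a pair is an uncommon feature of a window of this length. The ETS core was present in 17.2% of windows, the AP-1 letters in 7.71% and the CRE letters in 1.85%, the last in none of the 10 windows. Of those 10 windows, 2 held the ETS core, 1 the AP-1 letters and 1 a capicua octamer. The windows of SPRY4 and SPRED1 held none of the searched letters. These matches describe the letters only and say nothing of occupancy.

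Total counts ran from 25572691 to 38373679 per library. TDP1, the gene targeted in the knockout, stood at 28.1, 25.1 and 25.8 CPM (counts scaled by library size and TMM) in the 3 untreated WT libraries and at 10.1, 11.3 and 11.0 CPM in the 3 KO libraries, a log2 fold change of -1.29 ± 0.11 (SE, adjusted p = 1.3e-05, edgeR quasi-likelihood test). The label of the knockout therefore matches a lower, though not absent, TDP1 transcript. TDP1 was also lower in wild-type DTC, at 15.7, 12.7 and 13.5 CPM, and stood at 28.4, 25.4 and 26.1 CPM in DTEC. A low TDP1 transcript was thus not particular to the knockout. Epithelial markers, all 7 of them above 3 counts in every group, summed to between 10955 and 11566 CPM in untreated WT, 6479 and 7546 CPM in DTC, 9446 and 12411 CPM in DTEC and 11646 and 12498 CPM in KO. The epithelial markers did not move alike from untreated WT to DTC. KRT8 (mean 4015 to 1869 CPM), KRT18 (2930 to 1184 CPM), KRT19 and EPCAM were called lower. CLDN4 was called higher (156 to 234 CPM), and KRT7 (1965 to 2071 CPM) and CDH1 (285 to 298 CPM) were not called. Of 6 fibroblast markers COL1A2 and DCN were at 3 counts or fewer in every library. THY1 was at 4 or fewer and PDGFRB at 12 or fewer. LUM had 0 counts in the untreated WT libraries and 6, 18 and 19 counts in DTC. The summed list rose from between 8.03 and 9.00 CPM in untreated WT to between 55.0 and 57.7 CPM in DTC, nearly all of it COL1A1 (55.7 CPM in DTC). Of 6 leukocyte markers CD3E stayed at 3 counts or fewer in every library, and the list summed to between 0.405 and 1.31 CPM in untreated WT and between 10.3 and 12.7 CPM in DTC, led by CSF1R at 9.57 CPM. The 5 endothelial markers summed to between 58.5 and 61.4 CPM in untreated WT, 42.3 and 50.2 CPM in DTC and 122 and 142 CPM in DTEC, led by PECAM1 at 92.1 CPM in DTEC. The mitochondrially encoded share of counts lay between 2.504% and 2.77% for untreated WT and between 2.59% and 2.78% for KO, was highest for DTC, between 4.43% and 5.41%, and lowest for DTEC, between 1.82% and 2.38%. The part that these shifts play in the results on the 10 genes was not tested. Replicates differed beyond sampling noise, and DTC replicate 1 stood apart, with a chi-square per degree of freedom over genes of 116 and 72.1 against replicates 2 and 3, which gave 17.1 against each other. Untreated WT replicate 1 gave 25.45 and 17.7 against its replicates 2 and 3, which gave 5.3, and DTEC replicates 1 and 3 gave 48.8 against 12.01 and 21.2 for the other DTEC pairs. DTC replicate 1 was the highest DTC library for 8 of the 10 genes (all but SPRY1 and ETV4). Without it 9 of the 10 genes were still called lower in DTC, with a log2 fold change of -5.21 for DUSP6, and the return classes held 4, 3, 2 and 0 genes as with all libraries. Without untreated WT replicate 1 the classes held 6 complete returns, 1 partial return and 2 overshoots.

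After 7 days of erlotinib 9 of the 10 genes had fallen, each by at least 2-fold, and at 28 days all 9 had risen again. The falls ranged from 2.42-fold (DUSP5) to 32.8-fold (DUSP6), and SPRY2 was the one gene without a called change. At 28 days 4 of the 9 were back at a level not called different from untreated WT (DUSP5, SPRED2, ETV4 and ETV5), 3 remained called lower (DUSP4, SPRY4 and SPRED1) and 2 were called higher than before treatment (DUSP6 and SPRY1). In DTC vs untreated WT, 67.3% of all tested genes were called in either direction, 33.3% lower and 34.0% higher. Called and at least 2-fold lower, as all 9 of these genes were, were 13.9% of tested genes. Lying with all 3 DTC libraries below all 3 untreated WT libraries, as the same 9 did, was a property of 33.8% of tested genes. The median log2 fold change at 7 days was -2.36 over the 10 genes and 0.06 over all tested genes. In cultures measured in bulk, a fall in fewer cells and a smaller amount of RNA per cell cannot be told apart.

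**Figure D1:**
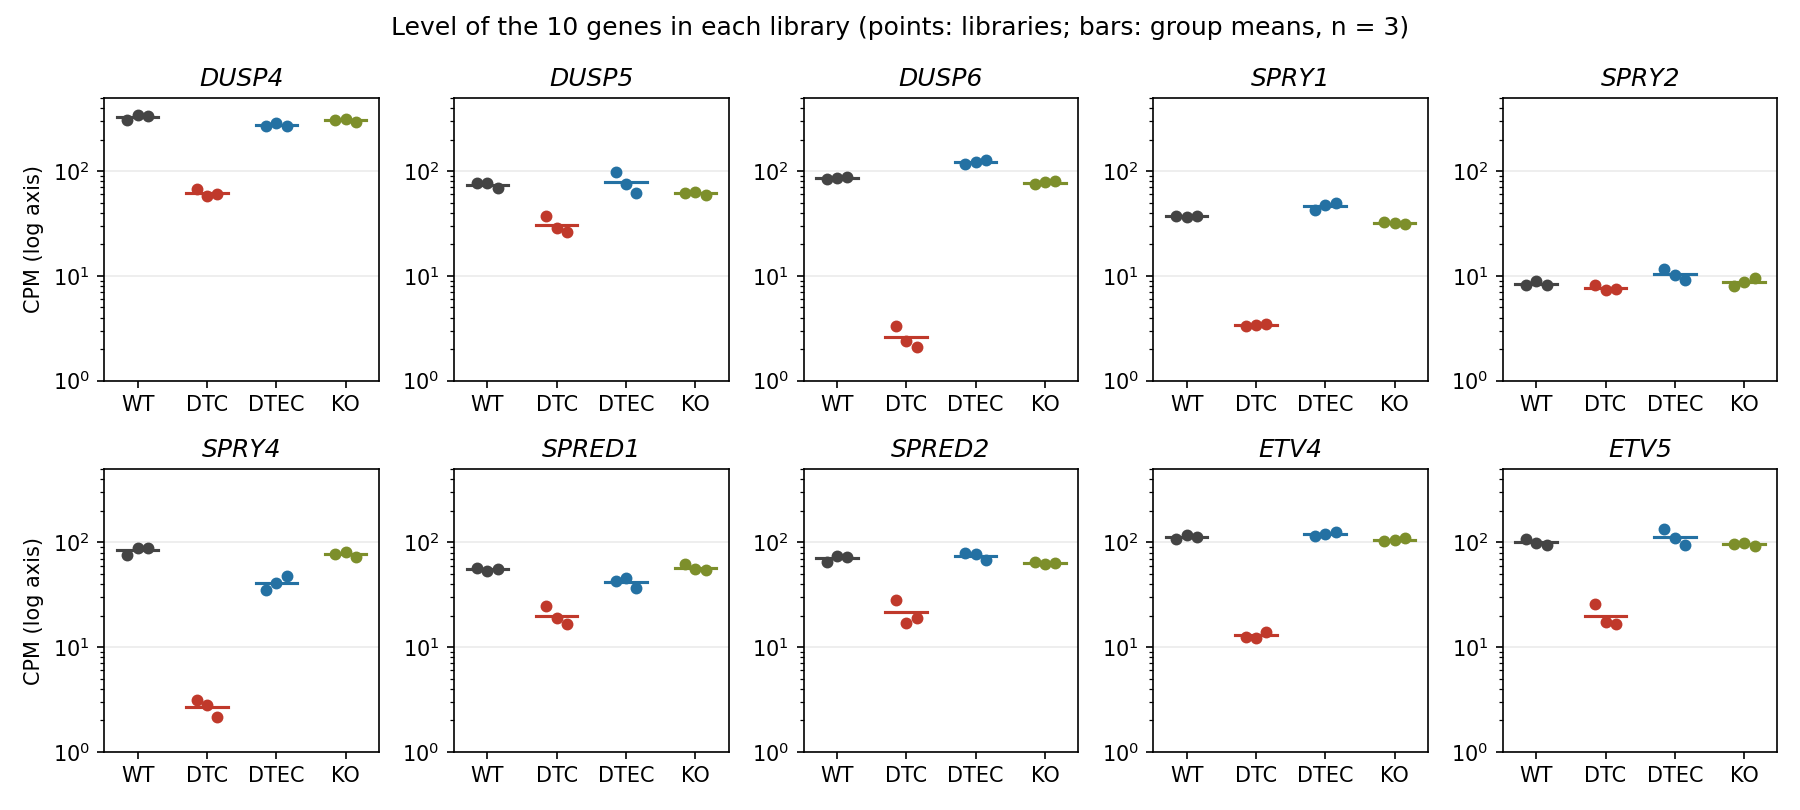
Level of each of the 10 genes in every library, in CPM on a log axis, by group (WT is untreated WT, bars are means of 3). DUSP6 and SPRY4 drop to between 2.11 and 3.35 CPM in DTC, and at 28 days DUSP6 lies above and SPRY4 below the untreated WT libraries.

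DUSP6 encodes the cytoplasmic phosphatase that is specific for ERK (GRCh38, chr12:89347232-89353271, minus strand). Its level was 83.8, 85.9 and 87.4 CPM in untreated WT, 3.35, 2.41 and 2.11 CPM in DTC and 118, 121 and 128 CPM in DTEC. The DTC libraries held 99, 82 and 72 counts of the gene. The DTC libraries lay far below, and the DTEC libraries above, all untreated WT libraries. The log2 fold change was -5.04 ± 0.143 (SE, adjusted p = 1.05e-11) at 7 days, which made DUSP6 the gene ranked 3 by size of fall among 9483 genes with at least 10 CPM in untreated WT. At 28 days it was 0.52 above untreated WT (95% interval 0.27 to 0.76, adjusted p = 0.00156), or 143% of the starting level (interval 121% to 169%). The excess was called in all 19 alternative analyses, with a log2 fold change between 0.48 and 0.68.

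DUSP4 encodes a nuclear phosphatase that acts on ERK and other MAP kinases (chr8:29333064-29350668, minus strand). It was the most abundant of the 10 in CPM, at 306, 342 and 335 CPM in untreated WT, 67.5, 58.1 and 61.0 CPM in DTC and 273, 289 and 271 CPM in DTEC. The DTC libraries were far below both other groups, and all 3 DTEC libraries were just below the lowest untreated WT library. The gene fell by 2.40 ± 0.0948 on the log2 scale at 7 days (SE, adjusted p = 1.28e-10), to 19.0% of the starting level. At 28 days the difference from untreated WT was -0.24 (95% interval -0.43 to -0.05, adjusted p = 0.0381). That small shortfall lost its call in 14 of 19 alternatives, whose adjusted p ran from 0.0127 to 0.545. They include the fits that leave out any 1 library other than DTC replicate 1 or 2, the lowest and highest of these being 0.0548 without untreated WT replicate 1 and 0.172 without untreated WT replicate 2. DUSP4 thus sits at the border between a partial and a complete return.

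DUSP5 encodes a nuclear phosphatase that binds ERK selectively (chr10:110497838-110511544, plus strand). Its libraries read 77.8, 76.9 and 69.0 CPM in untreated WT, 37.6, 28.4 and 26.4 CPM in DTC and 98.2, 75.0 and 62.4 CPM in DTEC. The DTC libraries lay below all others, whereas the DTEC libraries straddled the untreated WT range. DUSP5 had the smallest of the 9 falls, at -1.28 ± 0.159 (log2, SE, adjusted p = 6.25e-06). At 28 days it differed from untreated WT by 0.08 (95% interval -0.26 to 0.41, adjusted p = 0.708), an interval that reaches from 83.6% to 133% of the starting level. Without DTEC replicate 1, the highest library, the difference was -0.10 (adjusted p = 0.606; over all alternatives 0.199 to 0.914).

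Among the Sprouty genes, SPRY4 showed the deepest fall and the least complete return. Sprouty proteins are membrane-associated inhibitors that receptor tyrosine kinase signalling induces. SPRY4 (chr5:142310427-142326455, minus strand) stood at 76.5, 88.5 and 89.2 CPM in untreated WT, 3.14, 2.80 and 2.17 CPM in DTC and 34.8, 40.9 and 47.7 CPM in DTEC. Each group lay clear of the others, with the DTEC libraries in between. The 7-day change was -4.97 ± 0.162 (log2, SE, adjusted p = 2.78e-11), rank 4 by size of fall. At 28 days SPRY4 was still 1.04 below untreated WT, a log2 difference of -1.04 (95% interval -1.32 to -0.76, adjusted p = 1.47e-05), which is 48.6% of the starting level (interval 40.0% to 59.0%). The shortfall was called in all 19 alternatives (log2 difference from -1.17 to -0.87).

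SPRY1 (chr4:123396795-123403760, plus strand) ended above its starting level at 28 days, as DUSP6 did. It read 37.4, 36.4 and 37.5 CPM in untreated WT, 3.31, 3.41 and 3.46 CPM in DTC and 42.3, 47.6 and 49.5 CPM in DTEC. All DTEC libraries were above all untreated WT libraries. The fall was -3.45 ± 0.104 (log2, SE, adjusted p = 2.11e-11), rank 12. At 28 days SPRY1 was 0.32 above untreated WT (95% interval 0.13 to 0.52, adjusted p = 0.00725), or 125% of the starting level. This call was lost only when no filter on low counts was applied (0.33, adjusted p = 0.0541; over all alternatives 0.000396 to 0.0541).

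SPRY2 (chr13:80335976-80340951, minus strand) was the low-level member and did not follow the others. Its libraries read 8.18, 8.87 and 8.28 CPM in untreated WT, 8.25, 7.30 and 7.51 CPM in DTC and 11.7, 10.2 and 9.21 CPM in DTEC. The DTC and untreated WT libraries overlapped, and the DTEC libraries lay above both. The 7-day difference was -0.14 (95% interval -0.41 to 0.14, adjusted p = 0.356), and its sign turned with scaling by total counts (0.22) or by the upper quartile (0.15). The interval excludes a fall of the size seen in any of the other 9. From 7 to 28 days SPRY2 was higher by 0.43 (log2, adjusted p = 0.0101), a call lost in 5 of 19 alternatives (adjusted p 0.00711 to 0.115), among them leaving out DTC replicate 2 (0.0543) or DTEC replicate 1 (0.062). Against untreated WT the 28-day difference was 0.29 (95% interval 0.02 to 0.56, adjusted p = 0.0647). It was called in 7 of 19 alternatives (0.00676 to 0.220), among them leaving out DTC replicate 1 (0.0338), DTC replicate 2 (0.0498) or DTEC replicate 3 (0.0366).

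SPRED proteins bind RAS and RAF and carry the RAS GTPase activator neurofibromin to the membrane. SPRED1 (chr15:38252326-38357249, plus strand) stood at 57.5, 53.3 and 55.3 CPM in untreated WT, 24.5, 19.1 and 16.5 CPM in DTC and 42.9, 46.2 and 36.8 CPM in DTEC, so that the DTEC libraries fell between the other groups without overlap. It dropped by 1.47 ± 0.135 on the log2 scale at 7 days (SE, adjusted p = 2.9e-07) and was still lower at 28 days, at -0.40 (95% interval -0.68 to -0.12, adjusted p = 0.0195), 75.8% of the starting level. This call was lost in 5 of 19 alternatives (adjusted p 0.00197 to 0.154). They were scaling by total counts (-0.23, 0.154), scaling by the upper quartile (0.0709), and leaving out DTEC replicate 3 (0.079), untreated WT replicate 1 (0.0741) or untreated WT replicate 3 (0.0547). Only 1 of its 12 deposited values was exactly a whole number, with no tolerance allowed, so some SPRED1 fragments were assigned by estimation and its level is less certain than those of genes with whole values in all libraries.

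SPRED2 (chr2:65310851-65432637, minus strand) read 65.1, 74.5 and 73.1 CPM in untreated WT, 28.3, 17.2 and 19.1 CPM in DTC and 79.6, 77.5 and 67.4 CPM in DTEC. DTC lay below both other groups, which overlapped. The fall was -1.72 ± 0.153 (log2, SE, adjusted p = 2.09e-07), and the 28-day difference from untreated WT was 0.08 (95% interval -0.24 to 0.39, adjusted p = 0.682). Of the AP-1 stretches printed for SPRED2, TGACTCA begins 6 bases before an annotated start and TGAATCA lies at bases 35 to 41 after it.

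ETV4 (chr17:43527844-43579620, minus strand) is the more strongly affected of the 2 ETV factors. It stood at 107, 117 and 113 CPM in untreated WT, 12.5, 12.4 and 14.0 CPM in DTC and 116, 120 and 127 CPM in DTEC. The DTEC and untreated WT ranges overlapped narrowly. The fall was -3.12 ± 0.0972 (log2, SE, adjusted p = 2.16e-11), rank 26, and the 28-day difference was 0.11 (95% interval -0.08 to 0.30, adjusted p = 0.319). Scaling by total counts (0.28, adjusted p = 0.0178) or by the upper quartile (0.22, adjusted p = 0.0441) turned the complete return of ETV4 into an excess (adjusted p 0.0178 to 0.616 over all alternatives).

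ETV5 (chr3:186046308-186110318, minus strand) read 107, 99.9 and 93.8 CPM in untreated WT, 25.9, 17.2 and 16.8 CPM in DTC and 136, 111 and 93.7 CPM in DTEC. Here the DTEC libraries spread around the untreated WT range. ETV5 fell by 2.33 ± 0.167 on the log2 scale (SE, adjusted p = 2.41e-08) and at 28 days differed from untreated WT by 0.18 (95% interval -0.16 to 0.52, adjusted p = 0.352). DHX8 overlaps ETV4 on the other strand, with up to 3134 counts, and DGKG overlaps ETV5 on the same strand, with up to 562 counts. The library kit keeps strand information, but the strand setting of the counting is not given in the sources used here. All 12 deposited values of ETV4 and 10 of the 12 of ETV5 were whole numbers. Whether reads of these overlaps were shared was not tested.

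**Figure D2:**
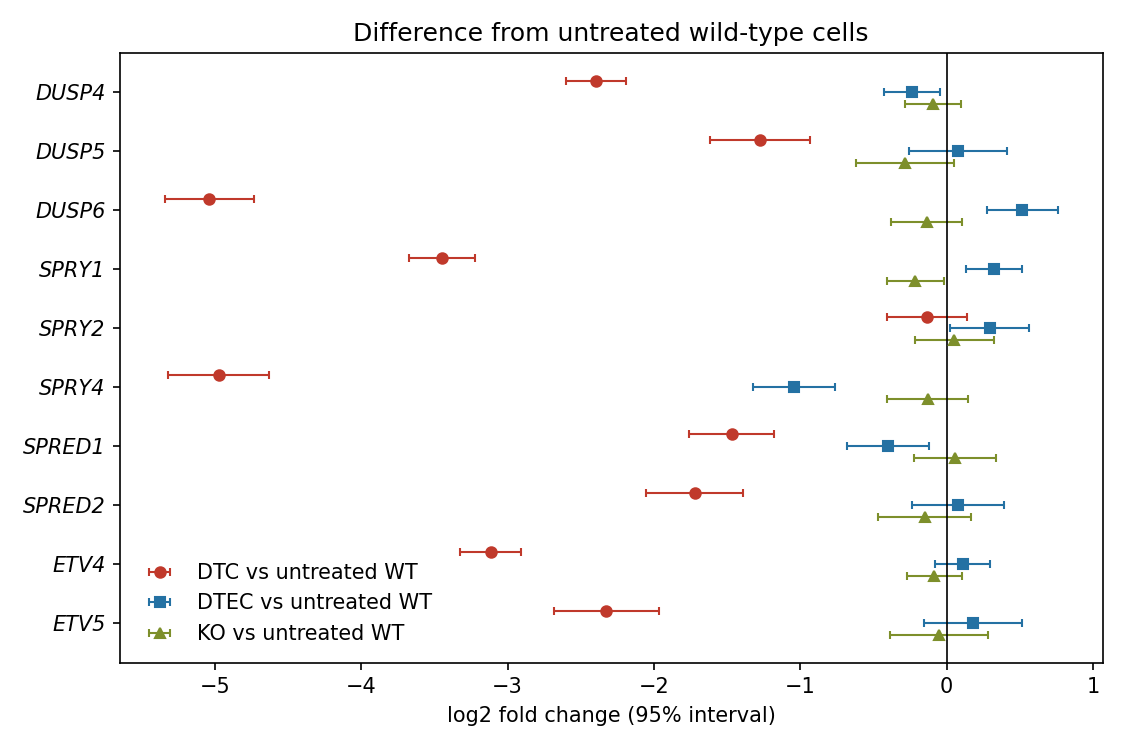
Difference of DTC, DTEC and KO from untreated WT for each gene, as log2 fold change with its 95% interval. In DTC 9 genes lie between -1.28 and -5.04, and in DTEC all but SPRY4 lie within 0.52 of the zero line.

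The direct comparison of the 2 treated groups gave the size of the rebound. All 10 genes were called higher in DTEC than in DTC, and all 3 DTEC libraries lay above all 3 DTC libraries for each of them. Of all tested genes 28.8% were called higher and 26.6% lower in that comparison, and 29.0% had all DTEC libraries above all DTC libraries. The log2 rise was 5.55 for DUSP6 (adjusted p = 1.15e-11), 3.93 for SPRY4 (adjusted p = 2.75e-10), 3.77 for SPRY1 (adjusted p = 1.58e-11) and 3.22 for ETV4 (adjusted p = 3.6e-11). It was 2.51 for ETV5, 2.16 for DUSP4, 1.80 for SPRED2, 1.35 for DUSP5 and 1.07 for SPRED1. The median was 2.33 over the 10 genes and -0.01 over all tested genes. The 95% intervals of the rises of SPRY4 (3.59 to 4.27) and SPRY1 (3.55 to 3.997) overlapped, whereas those of their log2 changes at 7 days did not (-5.32 to -4.63 and -3.67 to -3.23). Both genes were read in the same libraries, and the difference between them was not tested.

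In DTEC vs untreated WT, 5 of the 10 genes were called, 2 higher and 3 lower, against 52.3% of all tested genes called, 26.0% higher and 26.3% lower. All 3 DTEC libraries lay above all 3 untreated WT libraries for 3 genes (DUSP6, SPRY1 and SPRY2) and below for 3 (DUSP4, SPRY4 and SPRED1), against 31.1% and 31.3% of tested genes. The count of called genes at 28 days is thus close to the background. The comparisons with untreated WT share the same 3 WT libraries, so their values are set side by side and not correlated.

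The share of the 7-day log2 fall that had been regained at 28 days was 72.7% for SPRED1, 79.0% for SPRY4 and 90.1% for DUSP4. It was 103% for ETV4, 105% for SPRED2, 106% for DUSP5, 108% for ETV5, 109% for SPRY1 and 110% for DUSP6. Over 15 alternatives that give this share it stayed between 76.3% and 81.5% for SPRY4, and between 110% and 115% for DUSP6. For DUSP5, whose fall was small, it ran from 92.0% to 126%. By class, 4 of the 9 genes showed a complete return, 3 a partial return, 2 an overshoot and 0 no return. Among the 2371 tested genes that were called and at least 2-fold lower in DTC, 21.3% had a complete return, 50.4% a partial return, 4.56% an overshoot and 23.8% no return. Among all 5702 genes called lower these shares were 29.1%, 26.9%, 7.35% and 36.7%. The class rests on whether a difference was called, so a complete return means only that no difference from untreated WT was detected with 3 libraries a group.

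**Figure D3:**
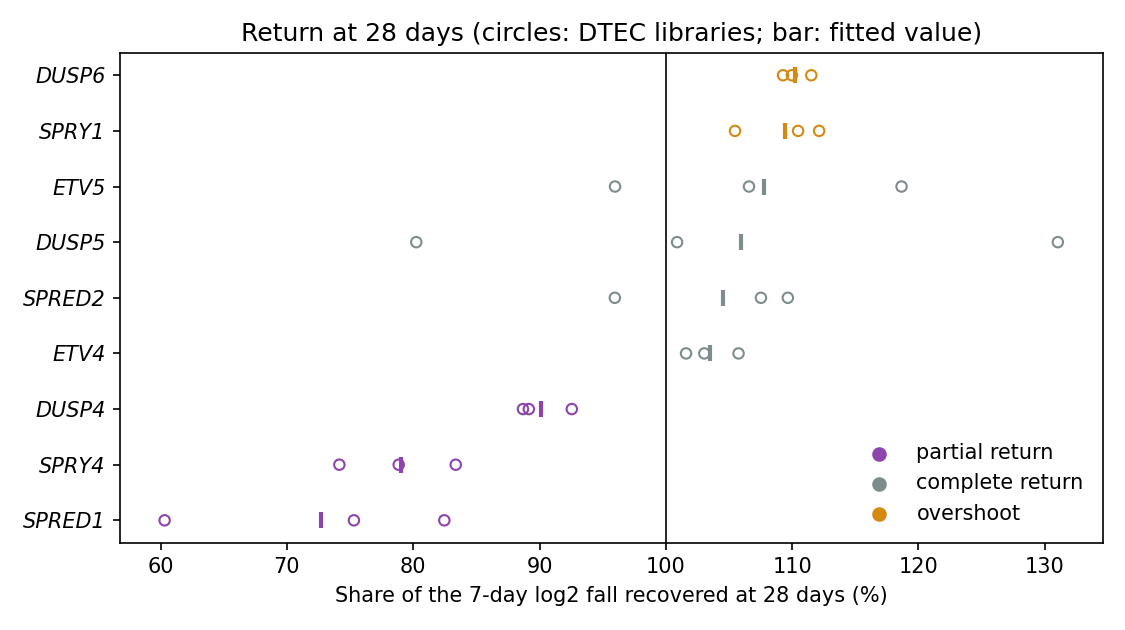
Share of the 7-day log2 fall regained at 28 days, in percent, for the 9 genes that fell (circles are the 3 DTEC libraries, bars the fitted value, colours the return class). SPRED1, SPRY4 and DUSP4 lie short of the line at 100%, and DUSP6, SPRY1 and, by a smaller margin, ETV4 lie past it in all 3 libraries.

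The 3 DTEC libraries did not order the genes alike. DTEC replicate 1 was the highest of the 3 for DUSP5, SPRY2, SPRED2 and ETV5 and the lowest for DUSP6, SPRY1, SPRY4 and ETV4. For DUSP5 its share of the fall regained was 131%, against 101% and 80.2% in replicates 2 and 3. For SPRY4 it was 74.2%, against 78.8% and 83.4%, so even the highest DTEC library stayed short of the starting level.

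Ratios between related genes within a library do not depend on how libraries are scaled, and they showed which relations were restored. The log2 ratio of DUSP6 to DUSP4 counts was -1.93 ± 0.0623 in untreated WT (SD, n = 3), -4.58 ± 0.258 in DTC and -1.18 ± 0.0879 in DTEC. The 3 groups were separate, with DUSP6 taking a larger place beside DUSP4 at 28 days than before treatment. The log2 ratio of SPRY4 to SPRY1 was 1.19 ± 0.135 in untreated WT (SD, n = 3), -0.34 ± 0.301 in DTC and -0.18 ± 0.118 in DTEC. SPRY4 exceeded SPRY1 in counts in all untreated libraries and was below it in all 6 treated libraries, and the DTC and DTEC ratios overlapped, so this relation was not back at 28 days where it had been before treatment. The log2 ratio of SPRED1 to SPRED2 was -0.35 ± 0.157 in untreated WT (SD, n = 3), -0.09 ± 0.212 in DTC and -0.84 ± 0.0784 in DTEC. Its DTEC libraries lay below all others. The log2 ratio of ETV4 to ETV5 was 0.17 ± 0.142 in untreated WT (SD, n = 3), -0.60 ± 0.41 in DTC and 0.11 ± 0.331 in DTEC. DTC lay below untreated WT without overlap, whereas the DTEC libraries spread across the untreated WT range. These ratios are given as descriptions, with no test.

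**Figure D4:**
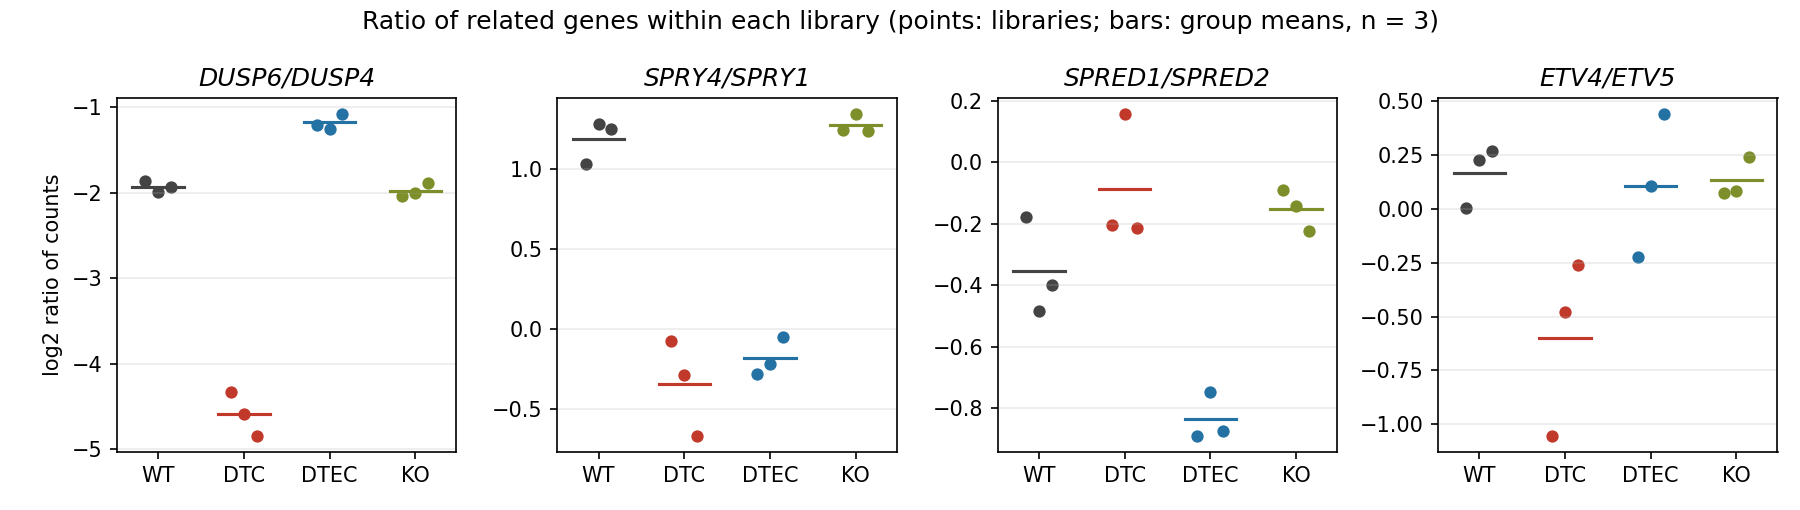
Log2 ratio of counts of related genes within each library (points are libraries, bars are means of 3). The ratio of SPRY4 to SPRY1 is between 1.03 and 1.28 in untreated WT and below 0 in all DTC and DTEC libraries.

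Levels of different genes can be compared only per length, here as CPM per kilobase of the union of GENCODE 29 exons. In untreated WT the level was highest for DUSP4 at 45.1 ± 2.62 CPM per kb (SD, n = 3), followed by ETV4 at 31.2, DUSP5 at 28.5, DUSP6 at 18.5, ETV5 at 17.3, SPRED2 at 13.8, SPRY4 at 12.9, SPRY1 at 9.36, SPRED1 at 6.71 and SPRY2 at 2.78. The library ranges of ETV4 and DUSP5, of DUSP6 and ETV5, and of SPRED2 and SPRY4 met or overlapped, so the order within these pairs is not resolved. In DTC the order changed, with DUSP5 at 11.8 CPM per kb and DUSP4 at 8.57 CPM per kb on top. SPRY1 at 0.857, DUSP6 at 0.566 and SPRY4 at 0.412 CPM per kb were at the bottom, below SPRY2 at 2.53. The libraries of DUSP6 (0.456 to 0.722) and SPRY4 (0.331 to 0.479) overlapped, so the order of these genes is not resolved. In DTEC DUSP4 had the highest mean at 38.3 CPM per kb, but its libraries (37.3 to 39.8) overlapped those of DUSP5 (23.9 to 37.6), and DUSP6 at 26.5 CPM per kb stood above ETV5 at 19.6, with no overlap of the libraries.

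In the untreated TDP1 knockout line no call was made for any of these genes. Of the 10 genes 0 were called in KO vs untreated WT by edgeR and 0 by DESeq2, and at an unadjusted p under 0.05 there was 1, SPRY1. Of all tested genes 4.31% were called, 2.76% higher and 1.55% lower. The median log2 fold change was -0.11 over the 10 genes and -0.01 over all tested genes, and the single values ran from -0.28 (DUSP5) to 0.05 (SPRED1). All 3 KO libraries lay below all 3 untreated WT libraries for DUSP5, DUSP6 and SPRY1, a pattern found in 19.9% of tested genes. DUSP5 read 61.4, 63.8 and 58.7 CPM in KO (log2 -0.28, 95% interval -0.62 to 0.05, adjusted p = 0.393). With the KO and untreated WT libraries fitted alone it was called lower (-0.26, adjusted p = 0.0173, and over all alternatives 0.0173 to 0.753). In that fit 8.29% of the 15183 tested genes were called lower and 9.2% higher. SPRY1 read 32.9, 32.0 and 31.0 CPM in KO (log2 -0.21, 95% interval -0.41 to -0.02, adjusted p = 0.238), and DUSP6 read 75.0, 78.2 and 80.6 CPM (log2 -0.14, 95% interval -0.38 to 0.11, adjusted p = 0.599). For each of the 9 genes that fell under erlotinib, the interval in KO excludes a fall of the size seen in DTC.

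Other genes of the pathway were described in 6 lists. Their counts are to be read against all tested genes, of which 34.0% were called higher and 33.3% lower in DTC, and 26.0% higher and 26.3% lower in DTEC, so calls in both directions within a list are also what the background holds. The median over all tested genes was 0.06 in DTC and 0.02 in DTEC. Scaling by total counts shifted the median of all genes upward by 0.35 in DTC and 0.17 in DTEC. With that scaling 46.8% of all tested genes were called higher and 21.6% lower in DTC, and 33.6% and 19.1% in DTEC. Of 7 other dual-specificity MAP kinase phosphatases, 4 were called higher and 2 lower in DTC, and 3 were higher and 3 lower in DTEC. DUSP10, which prefers the stress kinases p38 and JNK, rose from 3.68 ± 0.184 CPM to 32.5 ± 1.77 CPM in DTC (SD, n = 3, log2 3.14, adjusted p = 1.68e-09) and stood at 5.65 ± 0.655 CPM in DTEC. DUSP1, an immediate-early phosphatase with broad MAP kinase targets, rose from 7.89 ± 0.768 to 49.4 ± 7.35 CPM (SD, n = 3, log2 2.65, adjusted p = 5.77e-09) and stood at 13.8 ± 3.11 CPM in DTEC. These genes moved opposite to DUSP4, DUSP5 and DUSP6. DUSP7, the cytoplasmic ERK phosphatase most like DUSP6, fell from 35.9 ± 4.87 to 4.63 ± 0.524 CPM (SD, n = 3, log2 -2.96, adjusted p = 9.43e-10). Unlike DUSP6 it remained at 7.21 ± 1.23 CPM in DTEC (log2 -2.32 against untreated WT, adjusted p = 2.91e-08).

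Of 17 other transcripts that depend on ERK activity, 11 were called lower and 1 higher in DTC, and 11 were called lower and 2 higher in DTEC. The list medians were -1.45 in DTC and -0.70 in DTEC. HMGA2, a chromatin protein, read 426 ± 8.27 CPM in untreated WT (SD, n = 3), 36.6 ± 7.93 CPM in DTC and 173 ± 14.4 CPM in DTEC. PHLDA1 read 227 ± 16.9 CPM in untreated WT (SD, n = 3), 26.1 ± 3.3 CPM in DTC and 133 ± 6.95 CPM in DTEC. FOSL1, an AP-1 subunit, read 192 ± 13.2 CPM in untreated WT (SD, n = 3), 23.2 ± 2.7 CPM in DTC and 59.3 ± 11.8 CPM in DTEC. All of these were called lower at 28 days, with log2 fold changes of -1.31 for HMGA2 (adjusted p = 1.79e-06), -0.77 for PHLDA1 (adjusted p = 2.61e-05) and -1.70 for FOSL1 (adjusted p = 2.18e-07). Of the 11 that fell at 7 days, 3 returned completely (EREG, FOS and IER2), 7 partly, 0 overshot and 1 (SPHK1) did not return. Set beside the 4, 3, 2 and 0 of the feedback and ETV genes, the most frequent class here was the partial return, and the difference between the lists was not tested. In KO 4 of the 17 were called lower and 0 higher, against 1.55% lower and 2.76% higher of all tested genes. With scaling by total counts 3 were called lower, against 1.06% of all tested genes. Among the 4 was FOSL1 (114 ± 1.99 CPM, SD, n = 3, log2 -0.76, adjusted p = 0.00452).

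Of 15 other ETS factors, 11 were called lower and 2 higher in DTC, and 3 were lower and 6 higher in DTEC. ELK3, a ternary complex factor, fell from 119 ± 0.203 to 40.4 ± 6.67 CPM (SD, n = 3, log2 -1.56, adjusted p = 3.14e-08) and returned to 121 ± 9.93 CPM in DTEC. ETS2 fell by 1.11 on the log2 scale (adjusted p = 1.89e-06) and remained 0.75 lower at 28 days (log2 -0.75, adjusted p = 0.000144). ERF, an ETS repressor that ERK exports from the nucleus, fell by 1.10 (adjusted p = 3.44e-05) and also remained lower (log2 -0.67, adjusted p = 0.0029). Of the 11 that fell, 3 returned completely, 3 partly and 5 overshot (EHF, ETV1, ETV3, ETV6 and SPDEF), and 0 showed no return. ETV1 is the third PEA3-type factor beside ETV4 and ETV5.

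Of 19 genes of the RAS-RAF-MEK-ERK core and its adaptors, 11 were called lower and 3 higher in DTC. With scaling by total counts 4 were lower and 6 higher, so no direction can be given for this list. That scaling also moved the shares of all tested genes in DTC, to 21.6% lower and 46.8% higher. In DTEC 6 were lower and 5 higher. HRAS fell from 25.3 ± 1.96 to 6.64 ± 0.536 CPM (SD, n = 3, log2 -1.93, adjusted p = 5.77e-09) and stood at 10.5 ± 1.24 CPM in DTEC. SOS2, a nucleotide exchange factor for RAS, rose from 9.33 ± 1.07 to 31.5 ± 6.33 CPM (SD, n = 3, log2 1.75, adjusted p = 2.76e-07) and stayed at 31.7 ± 4.89 CPM in DTEC. PTPN11, the phosphatase SHP2 that couples receptors to RAS, fell by 1.20 on the log2 scale (adjusted p = 6.92e-06) and remained lower at 28 days (log2 -0.57, adjusted p = 0.00567).

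Of 14 other negative regulators of the pathway, 6 were called higher and 5 lower in DTC, and 5 were higher and 1 lower in DTEC. The DTC counts lie near the shares of all tested genes. In DTEC the shares of all tested genes were 26.0% higher and 26.3% lower, and the difference of the list from them was not tested. With scaling by total counts 7 were higher and 3 lower in DTC, against 46.8% and 21.6% of all tested genes. In DTEC that scaling gave 8 and 0, against 33.6% and 19.1%. CBLB and CBL, ubiquitin ligases that act on activated receptors, moved in opposite directions. CBLB rose from 15.9 ± 0.418 to 73.3 ± 17.5 CPM (SD, n = 3, log2 2.20, adjusted p = 7.99e-09), whereas CBL fell from 85.5 ± 5.88 to 38.8 ± 14.7 CPM (SD, n = 3, log2 -1.14, adjusted p = 0.000326). ERRFI1, an inhibitor that binds the EGFR kinase, fell by 1.12 on the log2 scale (adjusted p = 2.54e-06) and was above untreated WT at 28 days (log2 0.65, adjusted p = 0.000629), an overshoot like that of DUSP6 and SPRY1. Of the capicua complex, CIC itself was not called (log2 -0.38, adjusted p = 0.0584 in DTC and -0.38, adjusted p = 0.0727 in DTEC). CIC was called lower in DTC in 3 of 19 alternatives, among them no filter (-0.395, adjusted p = 0.00892) and leaving out untreated WT replicate 1 (-0.53, adjusted p = 0.00842; over all alternatives 0.00842 to 0.897). In DTEC it was called lower in 4 of 19, among them no filter (-0.37, adjusted p = 0.0192) and leaving out DTEC replicate 3 (0.0255) or, again, untreated WT replicate 1 (0.0112; range of all 19, 0.0112 to 0.347). Its partners moved in opposite directions in DTC, ATXN1 by 1.02 (adjusted p = 5.44e-05) and ATXN1L by -0.59 (adjusted p = 0.00252). The call for ATXN1L was lost with scaling by total counts (-0.23, adjusted p = 0.167, the highest of its alternatives, the lowest being 1.45e-06) or by the upper quartile (0.0631).

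**Figure D5:**
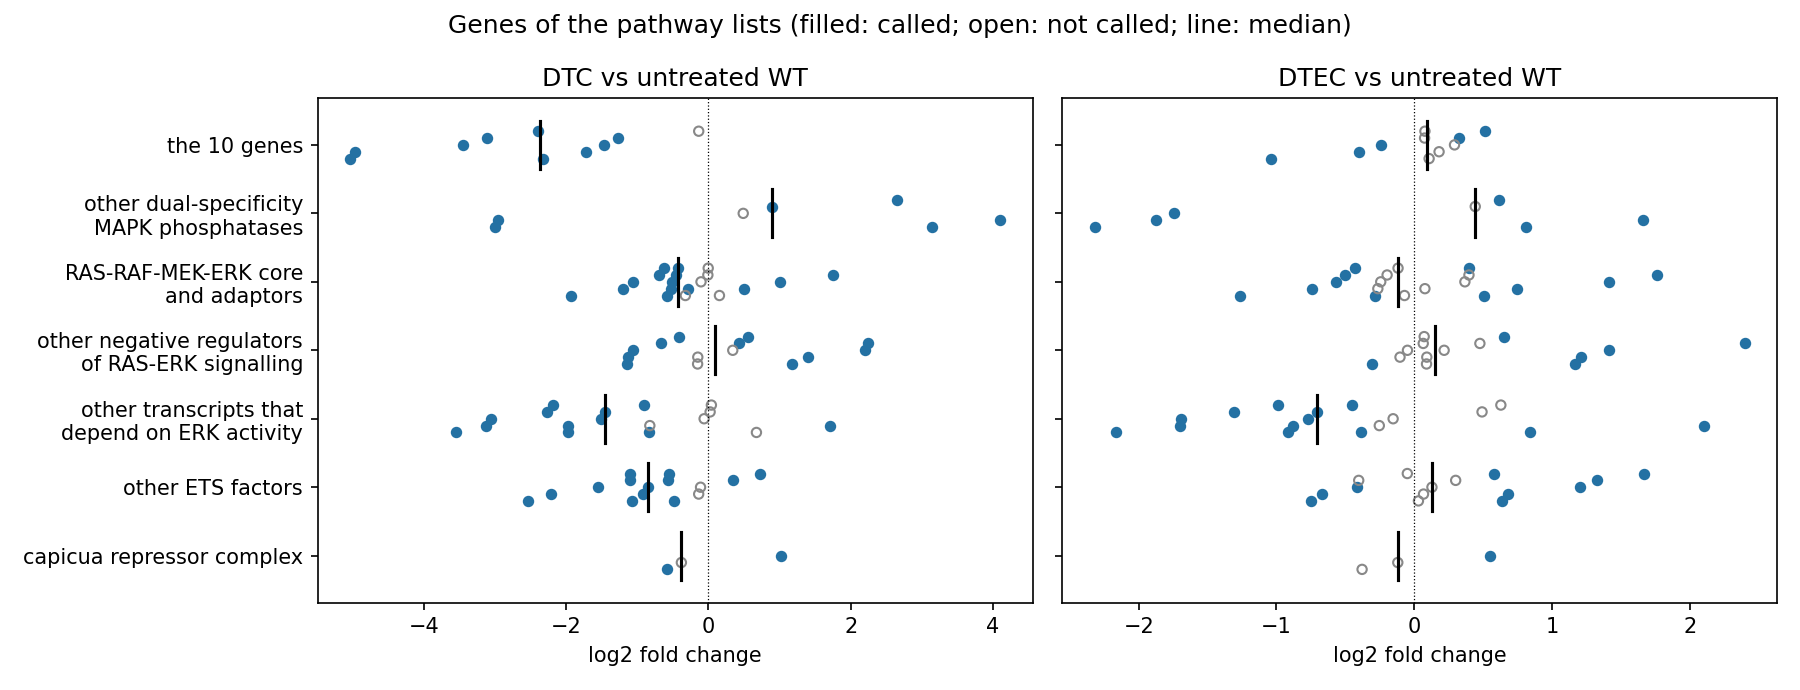
Log2 fold change of every gene of the 10-gene group and of the 6 pathway lists in DTC and DTEC against untreated WT (filled points are called, open points not called, lines are list medians). The 10 genes have a median of -2.36 in DTC and of 0.09 in DTEC, and the other ERK-dependent transcripts of -1.45 and -0.70.

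The genes whose profile over the 12 libraries was most like that of DUSP6 were looked for among 9482 genes, by the root mean square distance of log2 CPM relative to each gene's own untreated WT mean. The nearest 5 were PADI3 (distance 0.61), PADI4 (0.684), TRIB2 (0.737), SPRY4 (0.791) and SPRY1 (0.821). ETV4 ranked 10, ETV5 40 and DUSP4 42, whereas SPRED2 ranked 191, SPRED1 532 and DUSP5 705. The ranks by size of fall at 7 days run much alike (SPRY4 4, SPRY1 12, ETV4 26, DUSP4 99, ETV5 111, SPRED2 422, SPRED1 746 and DUSP5 1106). A small distance therefore need not mean a like return. At 28 days SPRY4 lay below untreated WT (log2 -1.04) and DUSP6 above it (0.52). PADI3 and PADI4 encode peptidylarginine deiminases, and TRIB2 a pseudokinase. PADI3 stood at 21.3 ± 0.627 CPM in untreated WT (SD, n = 3), 0.895 ± 0.292 CPM in DTC and 32.2 ± 8.32 CPM in DTEC. In KO it differed from DUSP6, with PADI3 called higher at 40.6 ± 1.2 CPM (SD, n = 3, log2 0.93, adjusted p = 0.00544) and DUSP6 not called (log2 -0.14). PADI4 stood at 15.6 ± 0.23 CPM (SD, n = 3), 0.751 ± 0.317 CPM and 13.3 ± 6.11 CPM in the same groups, with no called difference at 28 days (adjusted p = 0.474). TRIB2 stood at 71.4 ± 1.3 CPM (SD, n = 3), 5.86 ± 1.47 CPM and 105 ± 11.1 CPM. The 28-day excess of TRIB2 (log2 0.56, adjusted p = 0.00347) was of the size seen for DUSP6. That of PADI3 (log2 0.59, adjusted p = 0.00764) lost its call without DTEC replicate 3 (0.36, adjusted p = 0.0527; over all alternatives 0.000138 to 0.0527), and PADI4 without that library was called lower (-0.65, adjusted p = 0.0238; over all alternatives 0.0238 to 0.854).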

How the data were processed

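The deposited table holds expected counts per gene, which the authors estimated with fractions where a read fits several genes, per the values in the table. The submitters' processing notes name RSEM 1.3.1, Bowtie2 2.5.2, DESeq2 1.40.2 and GRCh38 without a role or order; the annotation and strand setting are not given in the sources used here. Counts were rounded to whole numbers, filtered by group with filterByExpr, scaled by TMM and fitted in R 4.3.3 with edgeR 4.0.16 (quasi-likelihood, robust, one mean per group over 12 libraries, 17115 genes), with Benjamini-Hochberg adjustment over all tested genes. A gene was called at adjusted p under 0.05. Intervals are 95%. CPM values use the TMM-scaled library sizes, and within-library ratios a pseudocount of 0.5.

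A fallen gene returned completely when called higher in DTEC than in DTC and not called against untreated WT, partly when still called lower, and overshot when called higher than untreated WT. Named beside the 10 genes were TDP1, in each pathway list the 3 largest changes in DTC among called genes with at least 10 CPM (all 3 of the capicua complex), and the 5 genes nearest to DUSP6. Genes named only to list a return class were chosen after their values were seen. The members and lists were chosen with earlier results of these data known. The 19 alternatives were RLE size factors, total counts alone, upper quartile scaling, no filter, DESeq2 1.42.0, the compared groups alone, a replicate block, and leaving out each of the 12 libraries. The fitting code was checked on simulated counts in which a small set of genes changed, up and down alike, in DTC only. In these data 67.3% of tested genes were called in DTC, so that check does not cover the choice of scaling.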

Additional observations from a re-analysis of the deposited data

Results flagged for a closer look

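For each of the 10 genes the difference from untreated WT at 28 days was not the same as at 7 days, by the direct test of DTEC against DTC. The log2 difference between the 2 times was 5.55 for DUSP6, 3.93 for SPRY4, 3.77 for SPRY1, 3.22 for ETV4, 2.51 for ETV5, 2.16 for DUSP4, 1.80 for SPRED2, 1.35 for DUSP5, 1.07 for SPRED1 and 0.43 for SPRY2, each with DTEC higher. The largest adjusted p among them was 0.0101, for SPRY2, whose call was lost in 5 of 19 alternatives (0.00711 to 0.115).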

How the results depend on the processing

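Across 19 alternatives, 720 of 760 log2 fold changes of the 10 genes kept their direction and their side of the threshold, 25 lost a call, 10 gained one and 5 changed sign. The 9 falls in DTC were called in all alternatives. Scaling by total counts or by the upper quartile changed the count of the 10 genes called higher in DTEC from 2 to 4 and lower from 3 to 1. Both left 1 partial return. Of all tested genes, 33.6% were called higher and 19.1% lower in DTEC with total counts, and 30.8% and 21.3% with the upper quartile. Without a filter on low counts 1 of the 10 was higher, against 14.5% of all genes, and 1 overshot. Leaving out 1 library gave 2 to 3 higher, 1 to 3 lower and 1 to 3 partial returns. The count of 1 came without DTEC replicate 3, untreated WT replicate 1 or untreated WT replicate 3, which lost DUSP4 and SPRED1. In KO, 1 of the 10 (DUSP5) was called lower with the compared groups alone, against 8.29% of the genes tested in that fit. Over all genes, 473 were called higher and 265 lower in KO. These counts were 730 and 423 by DESeq2, 1397 and 1259 with the compared groups alone, 812 higher without a filter, and 237 to 891 and 83 to 629 with 1 library left out, the highest without DTC replicate 1 and the lowest without untreated WT replicate 1 or KO replicate 2. The cause was not tested. Total counts alone left 3702 genes called lower in DTC. The share of calls that were higher moved from 50.5% to 68.4% in DTC, 49.7% to 63.7% in DTEC, 51.9% to 37.4% in DTEC vs DTC and 64.1% to 78.8% in KO with total counts, and to 65.0% in DTC, 38.7% in DTEC vs DTC with the upper quartile. The upper quartile shifted the median of all genes by 0.29 in DTC, 0.11 in DTEC and -0.17 in DTEC vs DTC.

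Signs changed for uncalled values only. With total counts these were SPRY2 in DTC (0.22), CBL (0.0647) and ATXN1L (0.0488) in DTEC and ETV5 in KO (0.0168), and with the upper quartile SPRY2 in DTC (0.15) and CBL in DTEC (0.0106). Leaving out 1 library, the log2 difference in DTEC ran from -0.0997 (without DTEC replicate 1) to 0.209 (without DTEC replicate 3) for DUSP5, from -0.218 to 0.0368 for CBL and from -0.0127 to 0.0789 for ELK3 with the same libraries out, and from -0.654 (without DTEC replicate 3) to 0.0682 (without DTEC replicate 1) for PADI4. The ETV5 difference in KO ran from -0.0766 to 0.0123, without untreated WT replicates 3 and 1.

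Same-numbered libraries of different groups deviated together weakly (correlation of deviations from the group means -0.03 to 0.179). No pair of groups was above 0.1 in all 3 numbers. Over the pairs of groups the correlation was 0.0527 to 0.179 for replicate 1, -0.03 to 0.0603 for replicate 2 and 0.0151 to 0.138 for replicate 3. Differently numbered libraries gave -0.187 to 0.118. Whether the numbers pair the samples was not tested. With a replicate block the counts of called genes among the 10 were 9 lower in DTC, 2 higher and 3 lower in DTEC, 10 higher in DTEC vs DTC and 0 in KO, and the return classes held 4, 3, 2 and 0 genes. The block also added calls for CIC, which completes the alternatives counted for that gene: lower in DTC (adjusted p = 0.0119) and in DTEC (0.0161). The lowest counts among the 10 genes were those of DUSP6, SPRY4 and SPRY1 in DTC, 72 to 118 per library, and SPRY2 had 244 to 383 in the wild-type libraries.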
